A study of Drosophila melanogaster with 4 samples.

Results

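The genes of the cytosolic ribosomal proteins of Drosophila melanogaster were taken as all genes of the count table whose FlyBase symbol starts with RpL or RpS, in that case of letters, together with sta, which encodes the small subunit protein RpSA. This rule gave 91 of 13608 genes, or 0.669% of the table. Of these, 89 encode 78 ribosomal proteins, 47 of the large and 31 of the small subunit, since 10 proteins are encoded by more than 1 gene. The other 2, RpL24-like and RpLP0-like, are named for their similarity to ribosomal proteins and are known, from yeast, as factors of large subunit assembly. The symbols RpS12 and RpL7-like also meet the rule, but their identifiers were not matched to the table, in which 95 identifiers had no symbol, and they were not analysed here. If RpS12 is among those 95, its counts are in the library totals but in no sum given here, so that the small subunit is described without RpS12.

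A ribosome joins a small subunit, which reads the mRNA, to a large subunit, which forms the peptide bonds. Each subunit is built in the nucleolus from ribosomal RNA and from proteins that, with the exception of the paired stalk proteins RpLP1 and RpLP2, are each present once. Loss of 1 gene copy of many of these proteins gives the Minute phenotype in flies, with short, thin bristles and slow development. The mRNAs are translated in the cytoplasm and share a tract of pyrimidines at their start, through which the target of rapamycin pathway acts on their translation in mammals. Most human ribosomal proteins have 1 functional gene, whereas Drosophila keeps several second copies, some of them known to be expressed mainly in testis or ovary.

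The samples were 4 replicates of 1 condition, heads of untreated adult wild-type flies, from which polyadenylated RNA was sequenced by 3′-seq. The study's methods give w1118 as the wild type and male and female flies, and the RNA came from cleared lysates of head powder that had been cross-linked with ultraviolet light. The record of the series describes independent lines, the labels name only replicates, and the spread given here is the spread between these 4 samples, which may in part be technical. The method (QuantSeq REV) primes cDNA on the poly(A) tail and reads inward from the cleavage site. The count of a gene is then not scaled by the length of its mRNA, and levels of different genes are compared on that basis. Priming at A-rich stretches within an mRNA can add reads, and its part in these counts was not tested.

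The replicates held between 8753359 and 13434565 counts on genes, and levels are given as counts per 1000000 of these (CPM), as mean ± SD over n = 4. All 9 photoreceptor markers examined reached 10 counts in each library, with a summed level between 29240 and 39603 CPM, as did all 6 neuron and all 4 glia markers. Replicate 1 stood apart in markers of other organs. Its sum over 16 testis markers was 275 CPM against 6.47 to 49.5 CPM in the others, its sum over 10 male accessory gland markers was 457 against 5.93 to 99.9 CPM, and its sum over 16 midgut enzymes was 1137 against 204 to 266 CPM. Of the midgut enzymes, Amy-d and Jon99Cii were lowest in replicate 1, at 10.6 and 0.670 CPM, and the others were highest in it. The ovary list summed to between 151 and 199 CPM, of which 152 ± 15.5 CPM was bru1, which is also used outside the ovary, while bcd was at 0 in every replicate and osk at 0 in all but replicate 3. Of the testis list 2 genes were detected at 10 counts or more throughout, and aly and sa were at 0 in every replicate. With 1 condition no groups could be compared, and the values below are a description of wild-type heads.

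The ribosomal protein genes took a large share of the mRNA of the heads. They held 18.9%, 21.8%, 23.3% and 21.9% of all counts in replicates 1 to 4, a mean of 21.5 ± 1.83%. Replicate 1 was the lowest of the 4, and the 95% Wilson interval of its share, 18.9016% to 18.9435%, shows that counting error was small beside the spread between replicates. Replicate 1 was also highest in the summed photoreceptor, glia (3338 against 1707 to 2317 CPM), testis, accessory gland and midgut lists. Not every gene of these lists followed. Of the photoreceptor markers, Arr1 and inaC were highest in replicate 4, ninaC in replicate 2 and trpl in replicate 3. The other photoreceptor markers were highest in replicate 1. Of the glia markers, repo was highest in replicate 4. The neuron list was highest in replicate 3, at 2566 CPM against 2369 CPM in replicate 1. The 5 markers of head fat body and yolk proteins summed to 6185, 9335, 13440 and 11827 CPM, lowest in replicate 1 and highest in replicate 3, as was the ribosomal protein share. Yp1, Yp2 and Obp99b had these extremes. Yp3 was lowest in replicate 3, fat-spondin was not lowest in replicate 1, and both were highest in replicate 4. The part of these tissues in the share was not tested. In RNA of whole heads, fewer cells of a type and less RNA per cell cannot be told apart. Members made up 3 of the 10, 22 of the 50, 51 of the 100 and 76 of the 200 genes with the highest mean level, led by RpL8 at rank 4 and RpS9 at rank 5. A count of 10 or more in each of the 4 libraries, the limit for calling a gene detected, was reached by 83 of the 91 members, against 57% of all genes. The other 8 were all second copies of a ribosomal protein, among which RpS28a alone had no count in any replicate.

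With the copies of each protein summed, the subunits were at nearly equal mRNA levels per protein. The large subunit mRNAs summed to 126618 ± 9790 CPM and those of the small subunit to 86995 ± 8854 CPM. The ratio of the sums within a library was 1.49, 1.40, 1.39 and 1.55 in replicates 1 to 4, a mean of 1.46 ± 0.0753, where equal levels of the 47 and 31 proteins would give 1.52. The median protein was at 2156 ± 174 CPM in the large subunit and at 2281 ± 173 CPM in the small subunit. Their ratio was 0.988, 0.842, 0.928 and 1.03, a mean of 0.948 ± 0.0827, so that the 4 replicates lay on both sides of 1. The ratio of the means per protein, 0.963 ± 0.0497, was also below 1 in 3 of 4 replicates. Without the genes whose annotated end overlaps another gene of the table, an alternative chosen after the data were seen, the ratio of the sums was 1.16 and that of the medians 0.920. This leaves out the leading copies of 13 large and 4 small subunit proteins, so that equal levels would no longer give 1.52. For RpL10A, RpS10 and RpS28 the lesser copies remained and stood for the protein at near-zero levels, which also enters the medians.

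Within a subunit the mRNA levels were not equal. The median protein of a library stood at 2043, 2150, 2172 and 2388 CPM, and by mean level over replicates, where the median protein was at 2237 CPM, 59 of the 78 proteins were within 2-fold of it, 11 above and 8 below that range. The fold between the 90th and the 10th percentile of the proteins was 3.68, 4.67, 5.56 and 4.06, a mean of 4.49 ± 0.818. This spread was alike in the subunits, at 4.32 ± 0.778 for the large and 4.32 ± 1.10 for the small. The order of the proteins was largely kept between libraries, with Spearman's rho across the 78 proteins between 0.895 and 0.945 over the 6 pairs of replicates. These are correlations across genes, which are not independent replicates. In all 4 replicates 28 proteins were above and 32 below the median protein of their library, and 7 were above 2 times that median.

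**Figure D1:**
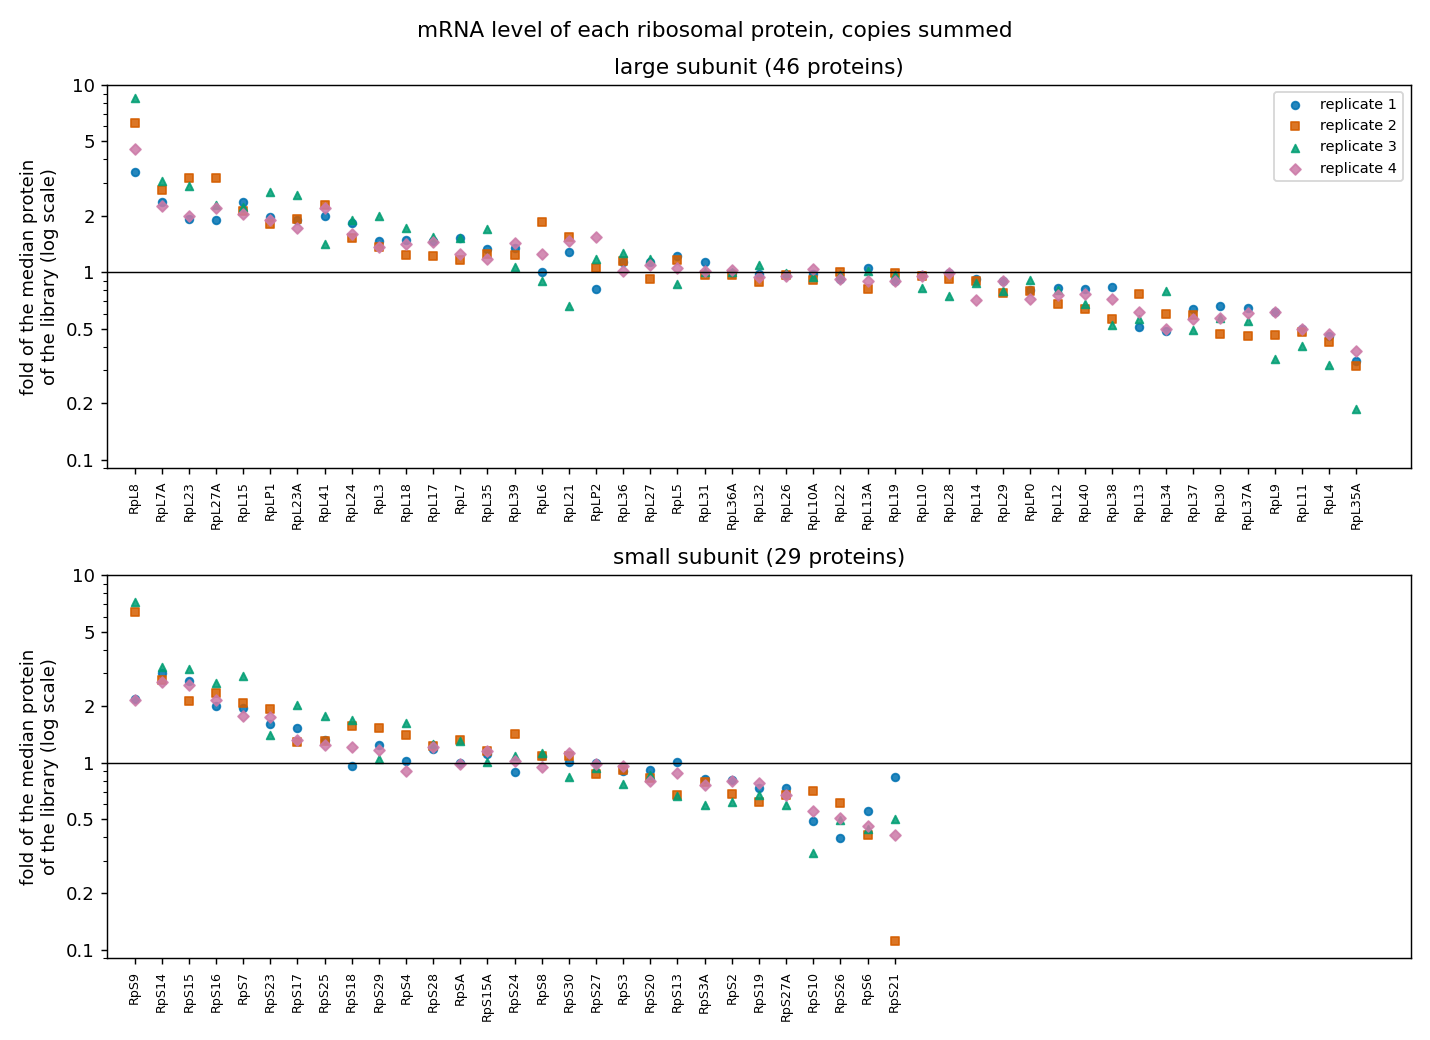
Level of each ribosomal protein mRNA, copies summed, as a fold of the median protein of the same library, on a log scale, for 46 large (top) and 29 small (bottom) subunit proteins, ordered by their mean. Symbols are the 4 replicates and the line marks the median. Most proteins lie within 2-fold of the line, and RpL8 and RpS9 lie above it and RpL35A and RpL4 below it in every replicate.

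The 7 proteins above 2 times the library median in every replicate were RpL8, RpL7A and RpL15 of the large subunit and RpS9, RpS14, RpS15 and RpS16 of the small subunit. RpL8, which lies close to the site of peptide bond formation, had the highest mean. Its gene (FBgn0261602, chromosome 3L, 2587456 to 2588883, plus strand of dm6) was at 6982, 13466, 18445 and 10870 CPM, a mean of 12441 ± 4808 CPM. RpS9, which binds ribosomal RNA early in small subunit assembly (FBgn0010408, chromosome 3L, 9509793 to 9511531, minus strand), was at 4457, 13628, 15669 and 5169 CPM, a mean of 9731 ± 5747 CPM. Both were highest in replicate 3 and lowest in replicate 1. Their ranges overlap, so that neither can be placed above the other, and in replicate 2 RpS9 was the higher of the pair.

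Below these came a series of proteins at closely spaced levels. RpS14, of the platform of the small subunit, was at 6375 ± 467 CPM, RpS15 at 5809 ± 988 CPM and RpL7A at 5703 ± 786 CPM. RpL23, at the face that meets the small subunit, was at 5456 ± 1346 CPM, and RpL27A was at 5224 ± 1210 CPM. RpS16, whose tail reaches the tRNA in the peptidyl site, was at 5009 ± 678 CPM, RpL15 at 4809 ± 150 CPM and RpS7 at 4755 ± 1060 CPM. Neighbours in this order differed by less than their SD in 1 or both genes. The annotated end of RpL23 overlaps inaD, a photoreceptor gene, so that counts of that region cannot be assigned between them without the strand setting, which is not given in the sources used here.

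At the lower end, RpL35A and RpL4 were below 0.5 of the library median in all 4 replicates. RpL35A was at 690, 678, 406 and 907 CPM, a mean of 670.1 ± 205 CPM, and was lowest in replicate 3. Its last exon, of 102 nt, is shorter than the read length that the study's methods state, as is that of RpL27A, of 104 nt. Reads were mapped without introns, and the part of this in the level of RpL35A was not tested. RpL4, which reaches into the tunnel through which the new peptide leaves, was at 915 ± 175 CPM. The highest of these values, for RpL4 in replicate 4, lay below the median protein of every library. Near them were RpS21 (1004 ± 599 CPM), RpS6 (1014 ± 111 CPM), RpL11 (1031 ± 128 CPM), RpS26 (1103 ± 218 CPM), RpL9 (1119 ± 313 CPM) and RpS10 (1134 ± 352 CPM), whose means lay within their spread of each other. RpS6 is the protein phosphorylated by S6 kinase, and RpL11 joins the ribosome in a complex with RpL5, which was at 2341 ± 300 CPM. Both subunits gave 5 of the 10 highest and 5 of the 10 lowest proteins.

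The proteins of the stalk are the exception to single copies in the ribosome. RpLP0 anchors the stalk and carries several copies of RpLP1 and RpLP2, which recruit the elongation factors. RpLP0 was at 1650, 1705, 1987 and 1724 CPM, a mean of 1766 ± 150 CPM. RpLP1 was at 4008, 3903, 5854 and 4522 CPM, a mean of 4572 ± 896 CPM. RpLP1 was therefore higher than RpLP0 in every replicate, by 2.57 ± 0.285-fold. RpLP2 was at 1655, 2264, 2563 and 3693 CPM, a mean of 2544 ± 854 CPM, and its ratio to RpLP0 ran from 1.0 in replicate 1 to 2.14 in replicate 4, a mean of 1.44 ± 0.490. The sum of both over RpLP0 was 3.43, 3.62, 4.24 and 4.77, a mean of 4.01 ± 0.608. RpLP1 exceeded RpLP2 in 4 of 4 replicates, by 1.91 ± 0.550-fold.

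The proteins made as fusions with ubiquitin or a ubiquitin-like peptide were close to or below the median. RpL40 was at 1589 ± 201 CPM, RpS27A at 1454 ± 132 CPM and RpS30 at 2222 ± 380 CPM. Leaving them out gave a ratio of the subunit sums of 1.51. The mRNA of sta, whose protein is related to a laminin-binding protein of mammals, was at 2509 ± 388 CPM. RpL32, which is widely used as a reference in quantitative PCR, lay at 0.978, 0.891, 1.09 and 0.947 of the median protein of its library, and its coefficient of variation over replicates (SD over mean) was 10.0%. RpS20 and RpL15 varied less, at 3.06% and 3.12%. These coefficients are of levels by library totals and depend on that scaling.

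Of the 10 proteins with several genes, each was represented mainly by 1 copy. In the 11 pairs formed by the most abundant copy and another, the same copy was the higher in 4 of 4 replicates. An exact two-sided sign-flip test over 4 replicates cannot go below p = 0.13, the value that each pair had, before and after Benjamini-Hochberg adjustment over the 11 pairs, so that none could pass 0.05. The treatment of reads that map to several genes is not given in the sources used here, and copies with like ends are uncertain. Of the 10 leading copies 8 lie on the X chromosome, against 1 of the 11 lesser copies, RpS14b, and 15 of all 91 members. The lesser copies had 1 exon in 5 of 11 cases (RpL10Aa, RpL37-2, RpS10a, RpS15Ab and RpS28a), against 6 of all 91 members, whereas the leading copies had 2 to 5 exons. The shares of all genes on the X chromosome and with 1 exon are not given here, so neither count is read as particular to these copies.

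**Figure D2:**
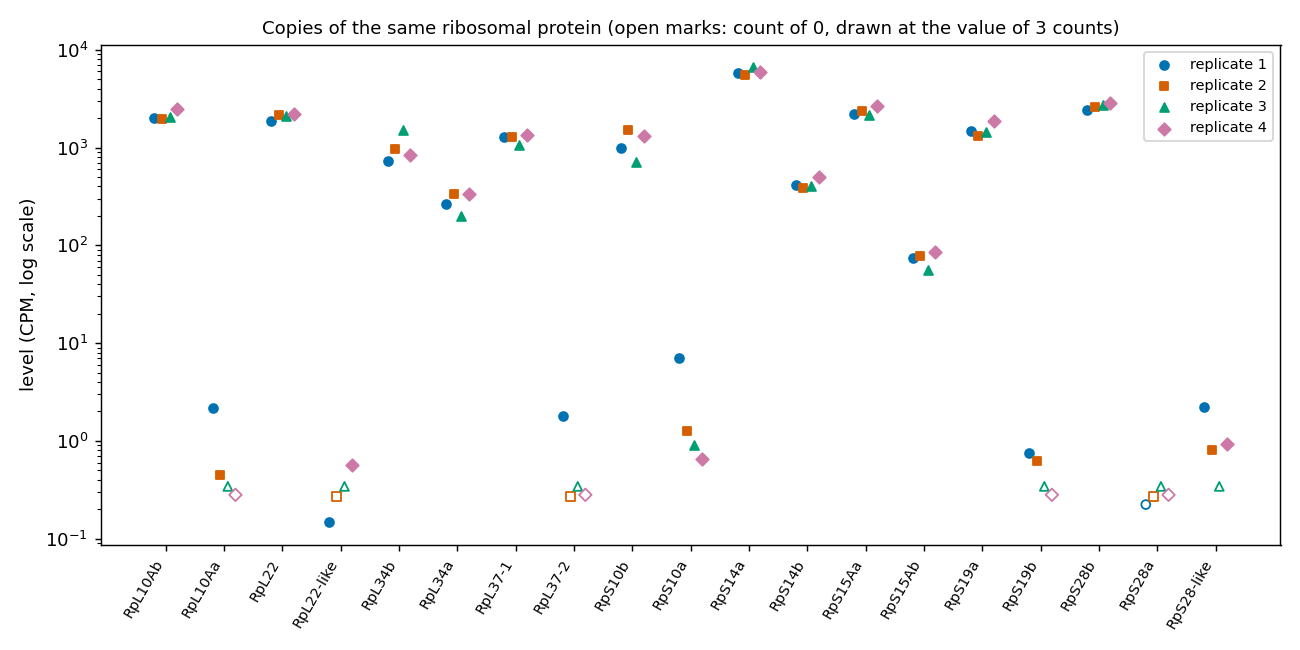
Level in CPM, on a log scale, of genes that share their protein with another member, in the 4 replicates. Open marks are counts of 0, drawn at the value that 3 counts would have. In each pair the leading copy lies above the other in all replicates, from RpL34b and RpL34a, which are closest, to RpS28a, which has no counts.

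RpL34 was the protein with the most even use of its copies. RpL34b (FBgn0037686, chromosome 3R, 9400237 to 9401226) was at 734, 958, 1519 and 845 CPM, and RpL34a (FBgn0039406, chromosome 3R, 26058420 to 26059267) was at 263, 336, 199 and 337 CPM. RpL34a thus gave 26.3%, 26.0%, 11.6% and 28.5% of the counts of the pair. Replicate 3 stood below the others, with the highest level of RpL34b and the lowest of RpL34a, and its 95% Wilson interval, 11.1% to 12.1%, did not overlap theirs. The mean ratio of RpL34b to RpL34a was 3.94 ± 2.45.

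RpS14a and RpS14b are tandem copies on the plus strand of the X chromosome, at 7933742 to 7934677 and 7934898 to 7935792, with 220 bp between them. RpS14a was at 5950 ± 464 CPM and RpS14b at 425 ± 51.3 CPM. RpS14b gave 6.70%, 6.45%, 5.75% and 7.82% of the pair in the 4 replicates, and the ratio of the copies was 14.2 ± 1.89. Despite its minor share, RpS14b was at rank 387 of all genes. RpS15Ab, a copy without introns on chromosome 2R, was at 73.6 ± 12.5 CPM beside RpS15Aa at 2344 ± 235 CPM. Its share was 3.31%, 3.13%, 2.56% and 3.13%, and the ratio of the copies was 32.3 ± 3.93. For both pairs the share of the lesser copy was lowest in replicate 3, as it was for RpL34.

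The remaining lesser copies each had fewer than 10 counts in some replicate. RpS10a had 94 counts in replicate 1 and 14, 8 and 7 in replicates 2 to 4, beside 6214 to 16777 counts of RpS10b. RpL10Aa had 29, 5, 0 and 0 counts, RpL37-2 had 24, 0, 0 and 0, RpS28-like had 30, 9, 0 and 10, and RpS19b had 10, 7, 0 and 0. These genes were therefore highest in replicate 1, the library with the highest sum of testis and accessory gland markers. RpL22-like, which is known for its expression in testis, had 2, 0, 0 and 6 counts and was highest in replicate 4. In all, 5 of the 7 lesser copies with counts but fewer than 10 in some replicate were highest in replicate 1, against 56.8% of all such genes in the table. The part of RNA from other organs in these counts was not tested. Without replicate 1 the mean of RpS10a fell from 2.46 to 0.943 CPM, that of RpL10Aa from 0.652 to 0.150 CPM and that of RpL37-2 from 0.447 to 0 CPM.

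RpS28a had 0 counts in all 4 replicates, where 3 counts in a library would have been 0.223 to 0.343 CPM. Against this floor per library it was at least 8003-fold lower than RpS28b, which was at 2668 ± 195 CPM. The copies RpL10Ab (2118 ± 246 CPM), RpL22 (2091 ± 142 CPM), RpL37-1 (1248 ± 121 CPM) and RpS19a (1533 ± 234 CPM) made up over 99.8% of the counts of their proteins in every replicate. Intervals and floors cover counting error only, since reads without molecular identifiers are not independent molecules.

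**Figure D3:**
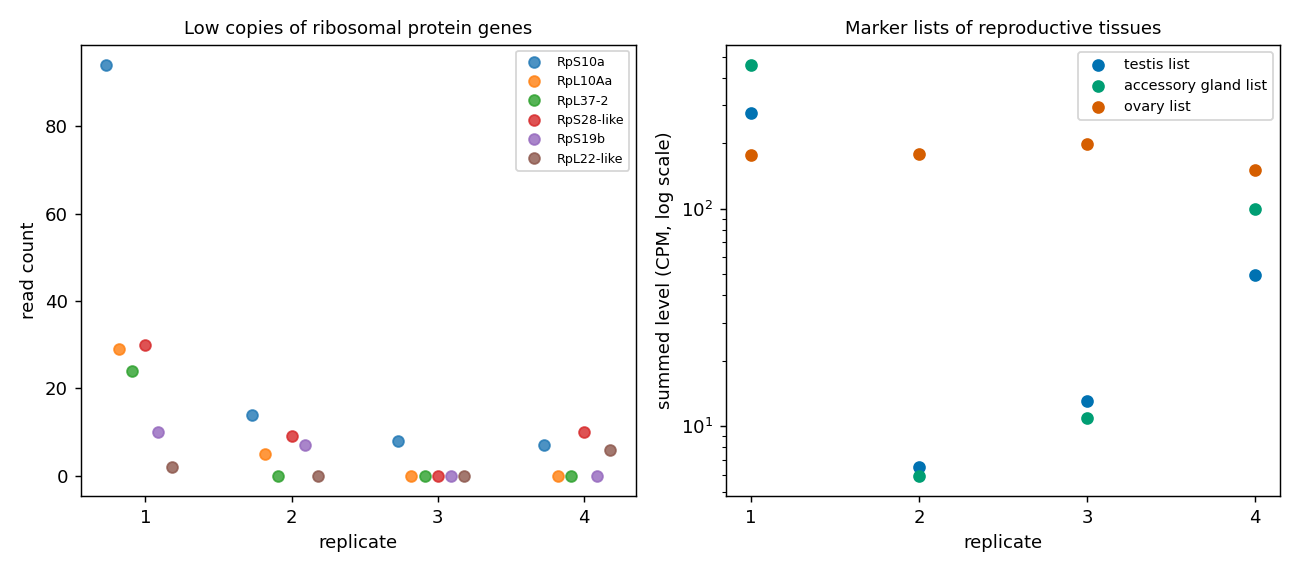
Read counts of 6 lesser copies with few counts (left) and the summed level in CPM, on a log scale, of the testis, accessory gland and ovary marker lists (right), in the 4 replicates. RpS10a, RpL10Aa, RpL37-2, RpS28-like and RpS19b are highest in replicate 1, as are the testis and accessory gland lists, and RpL22-like is highest in replicate 4.

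The ribosomal protein genes varied less between replicates than most genes. Their biological coefficient of variation, the spread that edgeR estimates beyond counting noise, had a median of 0.308 over 83 members, against 0.376 over all 7754 detected genes. These values use TMM and are drawn towards a trend over genes, so they are not the spread of each gene alone. RpL15 had 0.298 beside a plain coefficient of variation in CPM of 3.12%. The median plain coefficient by library totals was 15.4% over members, against 32.7% over all detected genes. For members it was 18.4% with TMM and 19.0% with the size factors of DESeq2, and the value over all genes under these is not given. The trend that edgeR fits against level was at 0.358 for the members, and 75 of 83 (90.4%) lay below it, against 68.9% of all genes. The highest replicate was at least 2 times the lowest for 11 of 83 members (13.3%), against 55.1% of all genes. The highest coefficients among members were those of RpS9, at 0.505, RpS21, at 0.494, and RpL8, at 0.409. RpL24-like, at 0.401, and RpL34b, at 0.385, followed.

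**Figure D4:**
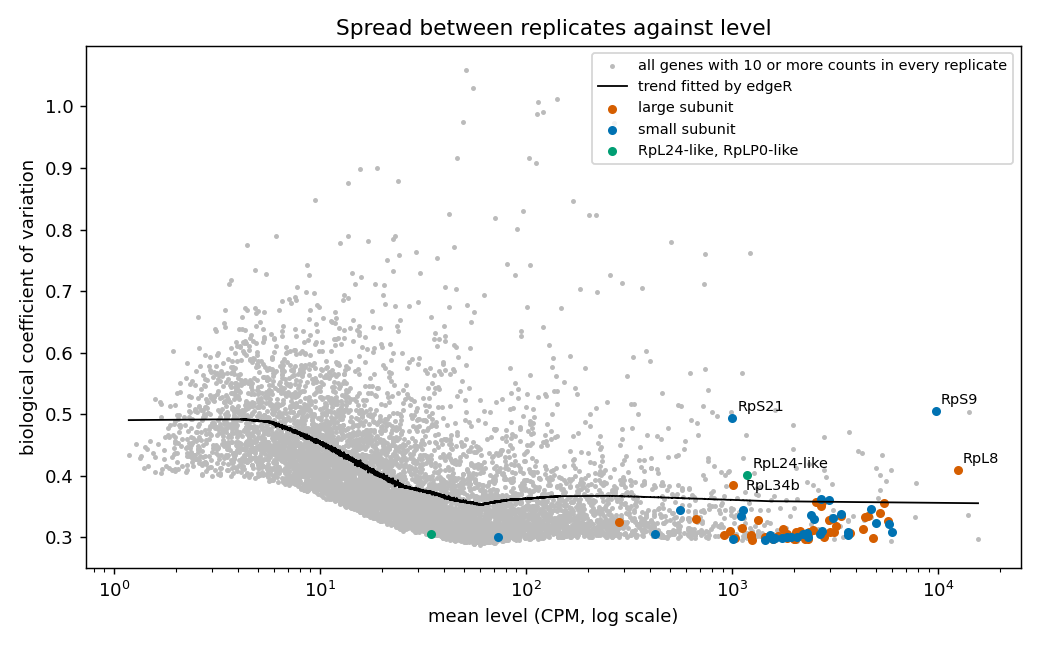
Biological coefficient of variation between the 4 replicates against mean level in CPM (log scale) for all 7754 detected genes, with ribosomal protein genes in colour and the trend of edgeR as a line. Of 83 members 75 lie below the trend, and RpS9, RpS21, RpL8, RpL24-like and RpL34b are named above it.

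RpS21 had the widest range. Its gene (FBgn0015521, chromosome 2L, 2856070 to 2857029, plus strand) was at 1702, 241, 1090 and 982 CPM. Replicate 2 was 7.06-fold below replicate 1, with a 95% Wilson interval of 232 to 250 CPM, and it was the lowest protein of that library, at 0.112 of the median. RpS9 ranged over 3.52-fold and RpL8 over 2.64-fold, and both were high in replicates 2 and 3. RpL24-like, the assembly factor, was at 722, 1681, 1429 and 914 CPM, and Nmd3, the export adapter of the large subunit, at 48.3, 128, 159 and 51.3 CPM. Non1, also of large subunit assembly, was higher in replicates 1 and 4, at 2023, 696, 723 and 1171 CPM. Likeness of these orders over 4 replicates was not tested, and the share of all genes with each order is not given. RpL6 was high in replicates 2 and 4, at 2055, 3983, 1953 and 2993 CPM. RpL21 was low in replicate 3, at 2617, 3326, 1428 and 3486 CPM. By Dixon's ratio at its 95% critical value, 1 replicate stood apart from the rest for 6 of the 83 members, against 5.16% of all detected genes.

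**Figure D5:**
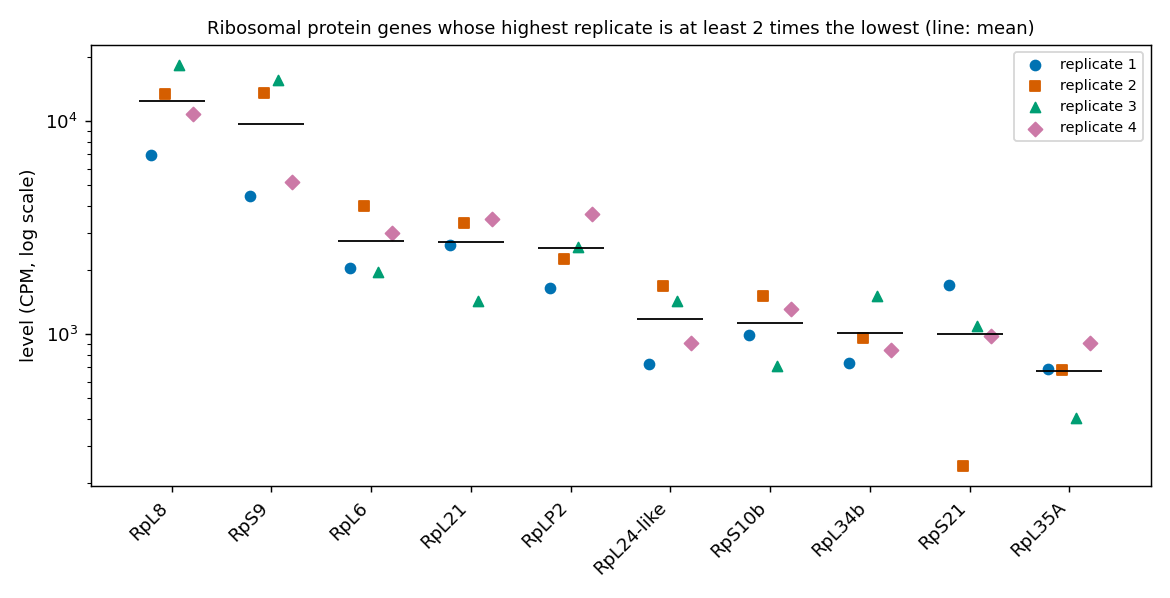
Level in CPM, on a log scale, in each of the 4 replicates for 10 members whose highest replicate is at least 2 times the lowest. Lines are means. RpL8 and RpS9 are high in replicates 2 and 3, RpS21 is low in replicate 2, and RpL21 and RpL35A are low in replicate 3.

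Which replicate was highest depended on the scaling. By library totals, 45 of the 83 members were highest in replicate 4, against 29.1% of all genes, and 24 in replicate 3, against 18.3%. Replicate 2 was the highest for 12 members, against 17.3% of all genes, and replicate 1 for 2, against 35.3%. The lowest level was in replicate 1 for 26 members, in replicates 2 and 3 for 28 each, and in replicate 4 for 1, against 13.6%, 25.3%, 43.7% and 17.4% of all genes. With TMM, which assumes that most genes are equal between libraries, 15 were highest in replicate 4 and 46 in replicate 3, against 24% and 32.3% of all genes. With the size factors of DESeq2 these numbers were 14 and 49, against 23.3% and 34.1%. Replicate 1 was the highest for 1 member under either alternative, against 21.4% of all genes in both. A range of at least 2-fold was found for 14 members with TMM, against 52.6% of all genes, and for 15 with the size factors, against 52.9%.

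The mitochondrial ribosome offers a second family of the same function. All 71 mitochondrial ribosomal protein genes examined were detected, and they summed to 3602 ± 265 CPM, or 0.360% of counts. The cytosolic sum over the 78 proteins was larger by 54.2, 54.5, 64.4 and 64.8-fold in the 4 replicates, a mean of 59.5 ± 5.93. The median mitochondrial gene had a mean level of 39.2 CPM, with a range of 12.8 to 305 CPM. All 78 leading copies of cytosolic proteins had a mean level above the highest of these. The mitochondrial genes had a median biological coefficient of variation of 0.341.

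Other genes of translation were mostly lower than the ribosomal proteins. All 7 elongation factor genes were detected, led by eEF1alpha1, which brings the charged tRNA, at 1362 ± 467 CPM, and eEF2, which moves the ribosome on, at 1216 ± 449 CPM. eEF5 was at 817 ± 388 CPM, eEF1beta at 630.4 ± 57.1 CPM, eEF1gamma at 574 ± 272 CPM, eEF1delta at 270.0 ± 28.3 CPM and eEF1alpha2 at 239 ± 79.3 CPM. Of these 7, eEF1alpha1, eEF1alpha2, eEF2, eEF1gamma and eEF5 were lowest in replicate 3, as were 43.7% of all detected genes by library totals. Among ribosome-associated factors, Rack1, which sits on the head of the small subunit, was at 2417 ± 424 CPM, within its SD of the median ribosomal protein. The subunits of the nascent chain associated complex, bic and Nacalpha, were at 747 ± 94.4 and 549 ± 102 CPM. The factor eIF6, which keeps free large subunits from joining, was at 13.4 ± 6.23 CPM. Among biogenesis genes, 19 of the 20 measured were detected, at a median of 21.5 CPM. RpLP0-like, at 34.7 ± 4.32 CPM, was near these, whereas RpL24-like reached 1187 ± 445 CPM. Non1, a GTPase of large subunit assembly, was at a like mean of 1153 ± 619 CPM in the same list, above RpL24-like in replicates 1 and 4.

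The genes of the 78 leading copies were short. The median coding sequence of their canonical transcripts was 466.5 nt, against 1377 nt over 7691 detected coding genes, and the median 3′ untranslated region was 173 nt, against 288 nt. They had a median of 3 exons, against 4. Across these 78 genes, Spearman's rho of mean level was -0.012 with coding length, -0.080 with the length of the 3′ untranslated region and -0.23 with that of the last exon, values that describe genes of the same libraries. The 91 members lay on all major chromosome arms, with 15 on X, 18 on 2L, 21 on 2R, 13 on 3L, 23 on 3R and 1, RpS3A, on chromosome 4. The median level of the leading copies ran from 1589 CPM on 2L to 2700 CPM on 3L, within the range of single proteins.

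Reads had been mapped without introns, so a read that crosses the last splice junction could not be placed whole. No member has a last exon shorter than 75 nt, the length that the overhang setting of the mapping implies, and the comparison was made at 150 nt, just below the read length that the study's methods state. The 5 leading copies under that limit, among them RpL23A, RpL35A, RpL27A and RpL39, had a median level 1.66, 1.92, 1.59 and 1.63 times that of the other 73, a mean of 1.70 ± 0.148. These 5 ranged from RpL35A at 670.1 CPM to RpL27A at 5224 CPM and were not uniformly high or low. The last 75 nt of 19 members overlap another gene of the table. Among them RpL39 and RpL12 overlap each other on chromosome 2R, at 2789 ± 473 and 1675 ± 156 CPM. The share of all genes with such an overlap is not given here, so the count is not read as particular to members. The 17 leading copies among these 19 had a median level of 2252 CPM, against 2222 CPM for the other 61.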

How the data were processed

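The authors made 3′-seq libraries from 10 ng of total RNA per replicate, trimmed poly(A) stretches with fastp, mapped reads to dm6 with STAR 2.6.1b without introns and deposited raw featureCounts read counts per gene, without normalization. The annotation, strand setting and treatment of multiply mapped reads are not given in the sources used here. Of 13608 gene IDs, 13513 matched a symbol in Ensembl release 115 and 95 did not. Counts were divided by library totals (8753359 to 13434565). Detection meant at least 10 counts in every replicate. Copies of 1 protein were summed. Dispersion was estimated with edgeR 4.0.16 (R 4.3.3, TMM, intercept only) and checked on simulated data. The genes changed in the simulation had a far larger spread, so this check does not bear on the small differences given here. Shares have 95% Wilson intervals, and 0 counts were read as up to 3. Named genes were all copies, the 10 highest and lowest proteins, the stalk, fusion and reference genes, genes with a replicate apart, elongation factors and ribosome-associated factors. Other members are named where a count of members was listed, chosen after their values were seen. Members and lists were chosen with earlier results of these data known. Alternatives were TMM, DESeq2 1.42.0 size factors, other filters and gene subsets, and leaving out each replicate. Python 3.11.15, pandas 2.3.3 and scipy 1.17.1 were used. No sequences were used. A few members that enter the counts and sums are not reported here by name or drawn.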

Additional observations from a re-analysis of the deposited data

Results flagged for a closer look

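For the reported members with counts, the shares of their leading copies and the 6 summary values of the family, the gap between the highest or lowest replicate and its nearest neighbour was divided by the range over the 4 replicates. A value above Dixon's 95% critical value for 4 samples was taken as a replicate that stood apart, which chance gives for about 1 in 20 groups. Of 102 values checked, 11 stood apart, of which 5, 2, 4 and 0 were in replicates 1 to 4. The values are not independent, since a lesser copy that stands apart enters again through its share. Levels here are by library totals, and this check is not given for TMM or DESeq2 size factors, under which the order of the replicates changes. A level flagged below may therefore not stand apart under another scaling. Among the 83 detected members the count was 6, or 7.23%, against 5.16% of all detected genes.

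Of the abundant genes, RpL5 had the ratio 0.971, with 1892 CPM in replicate 3 and 2484 to 2502 CPM in the others. RpL35 (0.886) and RpL23A (0.848) were high in replicate 3, at 3704 and 5626 CPM. RpL19 (0.877) was low in replicate 1, at 1824 CPM. RpL15 (0.869) and RpL13A (0.832) were low in replicate 2, at 4586 and 1744 CPM, and RpL15 was among the least variable proteins by library totals.

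Of the lesser copies, RpS10a (0.905) was high in replicate 1, at 7.0 CPM, and RpL37-2 had counts in replicate 1 only, at 1.79 CPM, which gives a ratio of 1. The shares of the leading copy followed. They stood apart for RpL34b in replicate 3 (0.850, a share of 88.4%), for RpL37-1 in replicate 1 (1, a share of 99.9%) and for RpS10b in replicate 1 (0.879, a share of 99.3%).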

How the results depend on the processing

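With the 20 most abundant other genes left out of the library total, the share of counts on ribosomal protein genes was 24.8% in place of 21.5%. Without genes whose end overlaps another gene, an alternative chosen after the data were seen, the ratio of the subunit sums was 1.16 in place of 1.46 and the fold between the 90th and 10th percentile was 5.68 in place of 4.49. This alternative rests on fewer proteins, more of them lost from the large subunit. It also kept RpL10A, RpS10 and RpS28 through lesser copies, led by RpL10Aa (0.652 CPM), RpS10a (2.46 CPM) and RpS28-like (0.995 CPM). These near-zero values lower the 10th percentile, so part of the wider fold comes from the filter itself. The ratio for short last exons was 1.49 with the shortest last exon of any transcript, in place of 1.70. The other alternatives moved the study-wide values by less than the spread between replicates. Leaving out 1 replicate gave 20.9% to 22.3% for the share, 1.43 to 1.48 for the ratio of the sums, 4.14 to 4.76 for the percentile fold, 3.76 to 4.21 for the stalk ratio and 57.7 to 61.2 for the cytosolic over mitochondrial sum. Of 53 named genes, 7 moved by over 1.5 times when 1 replicate was left out, all of them lesser copies. Beside those given above, RpS28-like fell from 0.995 to 0.582 CPM and RpS19b from 0.343 to 0.210 CPM without replicate 1, and RpL22-like from 0.178 to 0.0496 CPM without replicate 4. The alternative without genes that share 3′ end sequence was not run. No paired analysis was possible because 1 condition gives no groups to pair, and the copies of a protein were compared within libraries. Depth limits the 8 lesser copies with fewer than 10 counts in some replicate.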
